A study of Mus musculus with 24 samples.

Results

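Adult dorsal root ganglia were compared with lumbar ganglia late in embryonic life, using 6 of the 24 RNA sequencing libraries of a study in mice. The libraries were chosen by their sample labels, with earlier results of these data already known, and all 20782 genes of the deposited table were used. The sham ganglia were the L4 and L5 ganglia of adult mice after sham surgery (n = 3 libraries). The E17.5 ganglia were lumbar ganglia of embryos at embryonic day 17.5 (n = 3 libraries). Genotype, strain, sex, adult age and litter are not stated in the labels, no allele or agent is named for either group, and libraries are not tied to separate animals. The p-values therefore measure only how far these 3 libraries per group scatter, and part of that scatter may be technical. The other 18 libraries were of E12.5 ganglia, of adult ganglia after peripheral lesion and of cultures, and enter below only as levels set beside the 2 groups. Unoperated adult ganglia were not analysed here, so age and surgery cannot be told apart, nor can age and the number of lumbar levels sampled. The library numbers of the groups (69, 70 and 123 for sham, 336 to 338 for E17.5) belong to different series, so age cannot be told apart from library series either.

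Dorsal root ganglia hold the cell bodies of the sensory neurons of touch, pain, itch, temperature and body position, each wrapped in satellite glia, while Schwann cells accompany the axons. By late embryonic life the axons have reached the skin and muscle, but many receptors of adult sensory neurons are not yet made, Schwann cells have hardly begun to myelinate, and glia and connective tissue cells still divide. After birth axons lengthen with the growing body while the adult sets of channels, receptors and myelin proteins are laid down.

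Depth was 12.7, 17.1 and 21.8 M reads in sham ganglia, against 24.3, 3.10 and 4.61 M in E17.5 ganglia, so low levels at E17.5 rest mainly on replicate 1. Levels below are normalized read counts, which are the authors' values, given for replicates 1, 2 and 3 in order or as mean ± SD of 3 libraries. A log2 change is sham minus E17.5 on the log2(value + 1) scale, ± SE, and understates the change of genes with few reads. A gene is said to rise or fall where limma passed it at a Benjamini-Hochberg adjusted p of 0.05 over the 14652 genes tested, and every adjusted p below is of that test. Of these genes 4238 (28.9%) rose and 4556 (31.1%) fell, so that 60% were called in either direction, and the median log2 change over all tested genes was -0.03. A change shown to exceed 2-fold, by limma's treat test in the same fit, was found for 934 genes (6.37%) upward and 981 (6.7%) downward. Without sham replicate 1 or replicate 3 the upward count was 614 each, and without E17.5 replicate 1 the downward count was 649. The groups did not overlap in 67.3% of the tested genes. Replicates correlated at 0.992 among sham libraries and at 0.954 to 0.976 among E17.5 libraries on the log2 scale, against 0.832 to 0.863 between the groups, and principal component 1, which separated the groups, carried 83.8% of the variance.

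The labels name the source of all libraries as neurons and describe sorting, without saying whether it applied to these ganglia. Defining neuron markers were high in both groups: of 16 tested, 6 were higher and 4 lower in sham ganglia (median log2 change 0.16), and their summed level was 427934 to 469867 in sham ganglia, against 192869 to 231035 in E17.5 ganglia. Avil, the actin-binding protein advillin of sensory neurons, was 4729 ± 302 in sham ganglia, against 4209 ± 570.4 in E17.5 ganglia and was not called. Glial markers were abundant as well. The summed level of satellite glia and unmyelinated Schwann cell markers was 85641 to 94718 in sham ganglia, against 43639.7 to 51848 in E17.5 ganglia. Most of that difference was carried by the single gene Apoe, whose levels are given below. Of the 14 markers tested, 7 were higher, 1 lower and 6 not called (median log2 change 0.43). Myelinating Schwann cell markers summed to 70405 to 88623 in sham ganglia, against 9379 to 10872 in E17.5 ganglia. The values therefore describe neurons together with glia, and in such mixed samples fewer cells of a type and less RNA per cell cannot be told apart. Markers of fibroblasts and meninges summed to 8728 to 11279 in sham ganglia, against 33551 to 41856 in E17.5 ganglia, those of endothelial cells to 2484 to 2983 in sham ganglia, against 4680.5 to 5269.6 in E17.5 ganglia, and those of dividing cells to 634 to 818 in sham ganglia, against 3478 to 4719 in E17.5 ganglia. Erythroid markers summed to 5856 to 6517 in sham ganglia, against 22708 to 43210.5 in E17.5 ganglia, and cartilage and bone markers to 455 to 476 in sham ganglia, against 2285 to 3464 in E17.5 ganglia. In each of these 5 lists every sham library lay below every E17.5 library. Macrophage markers summed to 2389.7 to 2568 in sham ganglia, against 1771 to 2069 in E17.5 ganglia, with 5 higher, 2 lower and 9 not called of 16 tested. Only 2 of 14 measured lymphocyte markers passed the expression filter, and the list summed to 54.1 to 84.8 in sham ganglia, against 57.8 to 63.5 in E17.5 ganglia. Of the 17 spinal cord neuron markers 4 passed. Slc32a1, the vesicular GABA transporter, was not among them, at 0.244 ± 0.422 in sham ganglia, against 9.80 ± 10.2 in E17.5 ganglia. The spinal cord list summed to 261 to 302 in sham ganglia, against 529.5 to 695 in E17.5 ganglia, with 1 member higher and 2 lower. Astrocyte and oligodendrocyte markers summed to 1242 to 1372 in sham ganglia, against 3468 to 3799 in E17.5 ganglia, lower in every sham library, with 1 higher, 7 lower and 2 not called of 10 tested. Pericyte and smooth muscle markers summed to 2304 to 2777 in sham ganglia, against 3269.5 to 3442 in E17.5 ganglia, and epithelium and skin markers to 1847 to 2032 in sham ganglia, against 856 to 980.2 in E17.5 ganglia.

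**Figure D1:**
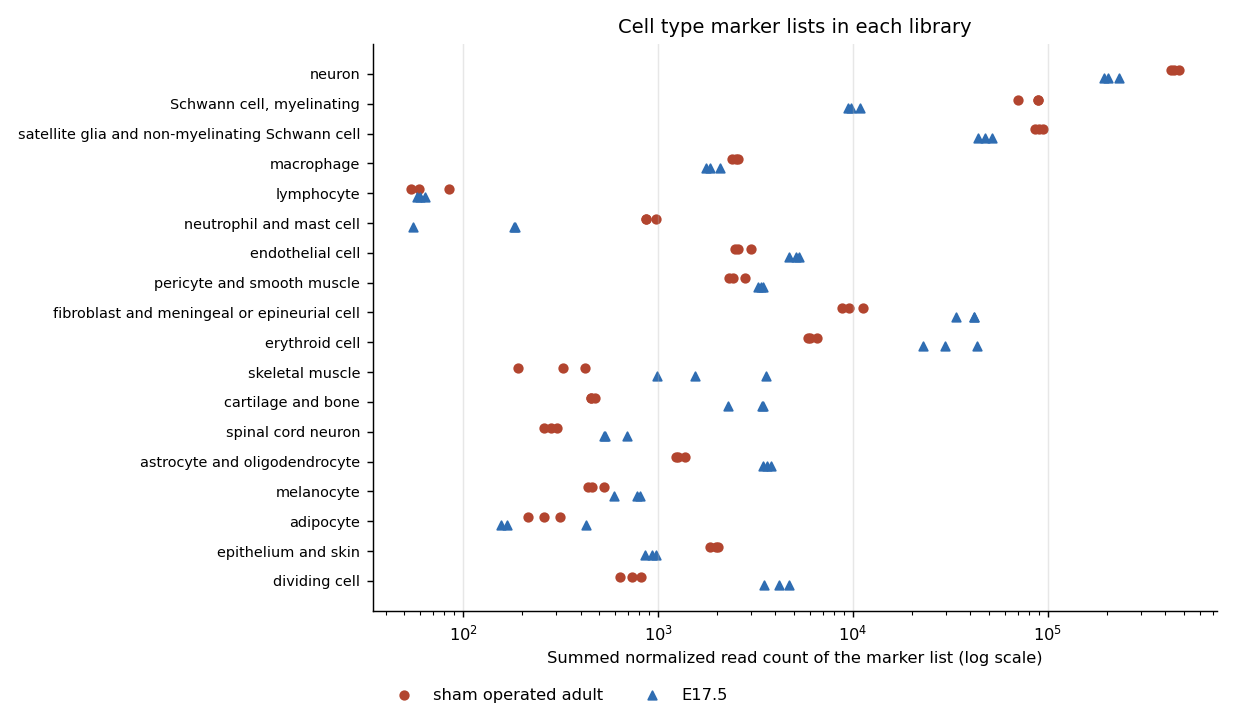
Summed normalized read count of each cell type marker list (x axis, log scale) in the 3 sham (circles) and 3 E17.5 (triangles) libraries. Myelinating Schwann cell markers lie between 70405 and 88623 in sham libraries and between 9379 and 10872 in E17.5 libraries, while fibroblast, erythroid, cartilage and bone, and dividing cell lists lie lower in every sham library.

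The 15 largest rises held receptors of sensory neurons, a myelin gene and class II antigen presentation genes among others. Ncmap, a protein of noncompact peripheral myelin, had 1152, 1179.9 and 994 in sham ganglia, against 10.1, 0 and 11.6 in E17.5 ganglia. All 3 E17.5 libraries were near 0 and far below all sham libraries. Its log2 change was 7.74 ± 0.86 (adjusted p = 1.2e-04). Mrgpra3, the chloroquine receptor of itch neurons, had 346, 317 and 315 in sham ganglia, against 2.19, 0 and 2.31 in E17.5 ganglia, a change of 7.22 ± 0.45 (adjusted p = 1.6e-06). Mrgprb4, a receptor of skin neurons that respond to stroking, had 126, 167 and 126 in sham ganglia, against 0, 0 and 0 in E17.5 ganglia. With no read in any E17.5 library it was at least 139.8-fold higher in sham ganglia, against a floor of 3 reads over the E17.5 group. Ddn, dendrin, had 312, 338 and 309 in sham ganglia, against 1.31, 0 and 0 in E17.5 ganglia. Only 3 reads stood behind its E17.5 level, and the ratio of 320 had a 95% counting interval of 109 to 1552. Fxyd2, a regulator of the sodium-potassium pump, had 2954, 2377 and 2259.5 in sham ganglia, against 35.0, 17.6 and 20.8 in E17.5 ganglia. H2-Aa, a chain of the class II antigen-presenting molecule, had 398, 347 and 286 in sham ganglia, against 5.25, 0 and 6.94 in E17.5 ganglia. Hapln4, a link protein of the matrix at nodes of Ranvier and around neurons, had 1446, 1439 and 1548 in sham ganglia, against 19.2, 17.6 and 13.9 in E17.5 ganglia. In each of these 3 genes the groups lay far apart and all sham libraries were high. Fam178b (6.77), Myoc (6.45), Mrgprb5 (6.45), Sprr1a (6.35), Cysltr2 (6.27), Cd74 (6.15), Paqr5 (6.04) and Mrgpra2a (5.98) completed the 15 largest rises, with log2 changes as given. In the GENCODE M21 annotation of mm10, Ncmap lies on chromosome 4, bases 135369576 to 135398227 (-), Mrgpra3 on chromosome 7, bases 47588950 to 47601372 (-) and Hapln4 on chromosome 8, bases 70083457 to 70090862 (+), all protein coding.

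The 15 largest falls held Y-linked genes, matrix genes, doublecortin and genes of fetal growth among others. Kdm5d, a Y-linked histone demethylase, was at 0 in all sham libraries, against 124, 81.1 and 178 in E17.5 ganglia. Uty and Eif2s3y, further Y-linked genes, were likewise at 0 in all sham libraries and had reads in every embryonic library. Uty was at least 155-fold and Eif2s3y at least 149-fold lower in sham ganglia. Ddx3y, also Y-linked, was at 0 in all sham libraries, against 32.8, 861 and 687 in E17.5 ganglia. The first E17.5 value equals a trimmed mean over all libraries, so the reads behind it are not known, and edgeR did not call the gene (adjusted p = 0.107). Xist, the RNA of the inactive X chromosome, had 5841, 5830.0 and 6463 in sham ganglia, against 7949, 12673 and 5489 in E17.5 ganglia. The sham libraries thus held no detected Y-linked RNA and the E17.5 libraries held Xist as well as Y-linked RNA, so sex composition differed between the groups and its part in other changes was not tested. Dcx, doublecortin, a microtubule protein of migrating and extending young neurons, had 173, 145 and 177 in sham ganglia, against 10299, 13565 and 9388 in E17.5 ganglia, a change of -6.05 ± 0.15 (adjusted p = 7.2e-08). Col22a1, a collagen of tissue junctions, had 1.97, 1.46 and 2.29 in sham ganglia, against 350.2, 332 and 279.8 in E17.5 ganglia. Dlk1, an imprinted membrane protein of fetal growth, had 15.7, 14.6 and 12.0 in sham ganglia, against 1186, 1100.5 and 1343 in E17.5 ganglia. Tnc, tenascin C, had 51.2, 31.4 and 49.9 in sham ganglia, against 3142, 2550.1 and 2275 in E17.5 ganglia. In these 4 genes every sham library was far below every E17.5 library. Igf2bp1, an RNA-binding protein of fetal cells, had 1.97, 1.46 and 1.15 in sham ganglia, against 129, 145 and 92.5 in E17.5 ganglia, a change of -5.59 ± 0.34 (adjusted p = 1.3e-06). Npy6r (-6.61), Coch (-6.48), Sidt1 (-6.01), Fbn2 (-5.83), Mmp13 (-5.81) and Npffr2 (-5.61) were the others among the 15 largest falls. Dcx lies on chromosome X, bases 143855842 to 143933311 (-), Igf2bp1 on chromosome 11, bases 95957163 to 96005940 (-) and Tnc on chromosome 4, bases 63959785 to 64047015 (-).

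**Figure D2:**
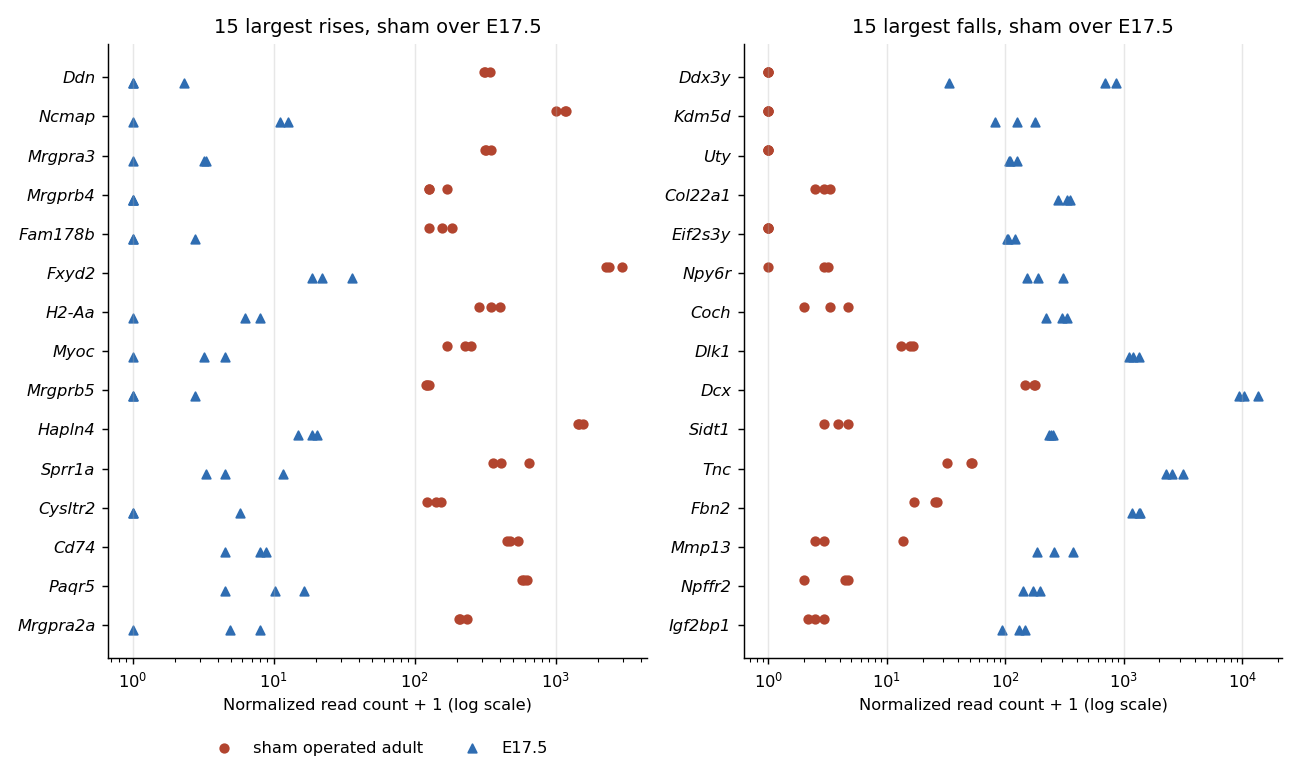
Normalized read count + 1 (x axis, log scale) of the 15 largest rises (left) and 15 largest falls (right), in the 3 sham (circles) and 3 E17.5 (triangles) libraries. No gene has overlapping groups, as the rule that chose them required, and the Y-linked genes are at 0 in all sham libraries.

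Most genes listed for itch and pain neurons rose. Among nociceptor and itch genes 28 rose, 3 fell and 11 were not called among 42 tested of 42 listed, with a median log2 change of 1.54, and 20 rose by over 2-fold. Trpa1, the channel for mustard oil and other irritants, had 492, 544 and 474 in sham ganglia, against 7.87, 10.6 and 4.62 in E17.5 ganglia. It was low in all E17.5 libraries and high in all sham libraries, a change of 5.92 ± 0.27 (adjusted p = 3.1e-07). Osmr, the oncostatin M receptor subunit of itch neurons, had 888, 966 and 1008 in sham ganglia, against 104, 102 and 104 in E17.5 ganglia, and Htr1f, a serotonin receptor, 153, 126 and 157 in sham ganglia, against 7.87, 10.6 and 0 in E17.5 ganglia. Both lay higher in every sham library. Plxnc1, a semaphorin receptor, was at 3406 ± 308 in sham ganglia, against 699 ± 59.8 in E17.5 ganglia. The 3 genes that fell were Mrgprx1, Gfra3 and P2rx3, the last not called in a fit of all 24 libraries (adjusted p = 0.0561). Mrgprx1, a receptor of itch neurons, had 393, 417 and 394 in sham ganglia, against 4135, 3763 and 3841 in E17.5 ganglia, a change of -3.28 ± 0.09 (adjusted p = 7.2e-08), which set it apart in direction from Mrgpra3 and Mrgprb4. How reads were divided between the near-identical Mrgpr genes is not stated, so the levels of single members are uncertain. Gfra3, the artemin receptor, was at 568 ± 38.8 in sham ganglia, against 1059 ± 328 in E17.5 ganglia (-0.85), and P2rx3, the ATP-gated channel of nociceptors, at 7256 ± 174 in sham ganglia, against 9040.5 ± 423 in E17.5 ganglia (-0.32).

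Genes of mechanoreceptors and proprioceptors were also more often higher: 20 rose, 4 fell and 8 were not called among 32 tested of 32 listed, with a median log2 change of 1.10. Their summed level was 111863 to 122239 in sham ganglia, against 26898 to 29583 in E17.5 ganglia. Nefh, the heavy neurofilament of large axons, carried much of that sum, with 78822, 87527 and 76306 in sham ganglia, against 11677, 9576 and 10178 in E17.5 ganglia, a change of 2.95 ± 0.10 (adjusted p = 9.6e-08). Kcng4, a modifier subunit of potassium channels in large sensory neurons, had 558, 595 and 602 in sham ganglia, against 8.31, 17.6 and 13.9 in E17.5 ganglia, with no overlap and few reads at E17.5. Esrrb, a nuclear receptor, was at 135 ± 6.58 in sham ganglia, against 8.45 ± 2.52 in E17.5 ganglia, and Slc17a7, the vesicular glutamate transporter of large-fibre terminals, at 2419 ± 143 in sham ganglia, against 309 ± 98.0 in E17.5 ganglia. Etv4 (-1.81), Cdh13 (-1.45), Etv1 (-0.38) and Necab2 (-0.93) fell, the last not called without sham replicate 1 or 3 or E17.5 replicate 1 or 3 (-0.90, -0.90, -0.70 and -0.77 on the log2 scale). In a fit of all 24 libraries neither Etv1 nor Necab2 was called (adjusted p = 0.114 and 0.206). Etv1 and Etv4 are transcription factors induced in sensory neurons by target-derived growth factors.

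Channels of excitability rose more often than they fell, with exceptions inside each family. Of the voltage-gated sodium channel genes 7 rose, 4 fell and 2 were not called among 13 tested of 14 listed, with a median log2 change of 0.33. Scn4b, the subunit of resurgent current in large neurons, had 7968, 8731 and 8461 in sham ganglia, against 512, 419.7 and 559.6 in E17.5 ganglia, a change of 4.08 ± 0.12 (adjusted p = 7.2e-08). Every sham library lay above every E17.5 library. Scn3a, the pore subunit of embryonic neurons, had 152, 164 and 169 in sham ganglia, against 1138, 1340.3 and 867 in E17.5 ganglia and so ran the other way, with a change of -2.76 ± 0.16 (adjusted p = 1.1e-06). Scn8a, the pore subunit of mature nodes, was at 4196 ± 301 in sham ganglia, against 1529 ± 107 in E17.5 ganglia (1.46). The auxiliary subunits Scn3b (-1.39) and Scn2b (-1.12) fell, and so did the pain channel Scn9a (-0.43). Of the potassium channel genes 39 rose, 13 fell and 18 were not called among 70 tested of 72 listed, with a median log2 change of 0.84, and 23 rose by over 2-fold against 2 that fell by as much. Kcnmb1, a subunit of calcium-activated BK channels, was at 1239 ± 73.3 in sham ganglia, against 55.6 ± 16.1 in E17.5 ganglia, and Kcnk1, a background channel, at 2082 ± 39.5 in sham ganglia, against 99.97 ± 17.8 in E17.5 ganglia. Among those that fell, Kcnk18, the background channel TRESK, was at 181 ± 17.5 in sham ganglia, against 533 ± 102 in E17.5 ganglia (-1.54) and Kcnmb2, a further BK subunit, at 92.8 ± 7.20 in sham ganglia, against 264 ± 45.6 in E17.5 ganglia (-1.49).

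Calcium channel subunits showed no common direction: 7 rose, 8 fell and 5 were not called among 20 tested of 24 listed, with a median log2 change of -0.30. Cacna2d2, an alpha2delta subunit named in the title of the study, had 322, 314 and 337 in sham ganglia, against 1070.3, 839 and 936 in E17.5 ganglia, lower in every sham library, with a change of -1.54 ± 0.12 (adjusted p = 6.2e-06). Cacna2d1, a further alpha2delta subunit, was at 3650.3 ± 404 in sham ganglia, against 3487 ± 697 in E17.5 ganglia and was not called, with a change of 0.08 ± 0.15 (adjusted p = 0.666). Cacna2d3 was at 106 ± 0.999 in sham ganglia, against 54.4 ± 2.96 in E17.5 ganglia (0.95), and Cacna2d4, with 1 read over the sham group and 3 over the E17.5 group, was below the filter. Cacnb4, a beta subunit, rose to 3751 ± 163 in sham ganglia, against 1241 ± 304 in E17.5 ganglia, and Cacna1g, a low-threshold pore subunit, fell to 18.9 ± 1.18 in sham ganglia, against 133 ± 26.3 in E17.5 ganglia. Among Hcn, Trp, Asic and Piezo genes 15 rose, 8 fell and 5 were not called among 28 tested of 36 listed, with a median log2 change of 0.53. Trpc6 was at 242 ± 9.81 in sham ganglia, against 21.6 ± 9.97 in E17.5 ganglia and Hcn2, a pacemaker channel, at 787 ± 26.4 in sham ganglia, against 146 ± 65.5 in E17.5 ganglia, both higher in sham ganglia. Piezo2, the channel of touch and body position, fell to 3317 ± 329 in sham ganglia, against 8443 ± 623 in E17.5 ganglia (-1.35).

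Genes of the axon and its terminals changed in RNA level in the ganglia, in both directions. Of the neurofilament and mature axon genes 19 rose, 7 fell and 5 were not called among 31 tested of 34 listed, with a median log2 change of 0.85. Thy1, a surface protein of mature neurons, had 14604, 16109 and 13889 in sham ganglia, against 2365, 2039 and 2282 in E17.5 ganglia, and Snap25, a fusion protein of synaptic vesicles, had 26275, 28354 and 29069 in sham ganglia, against 4124, 5284 and 3699.6 in E17.5 ganglia. Both groups of libraries were tight and did not overlap, with changes of 2.74 ± 0.10 (adjusted p = 1.2e-07) and 2.69 ± 0.13 (adjusted p = 3.9e-07). Gldn, gliomedin, which clusters sodium channels at nodes, was at 380.0 ± 49.3 in sham ganglia, against 15.0 ± 5.08 in E17.5 ganglia. Ina, alpha-internexin, a filament of young axons, fell to 635 ± 34.6 in sham ganglia, against 2849 ± 117 in E17.5 ganglia, and Gap43, the growth-associated protein, to 4323 ± 302 in sham ganglia, against 12266 ± 788 in E17.5 ganglia (-1.505). Of the presynaptic genes 26 rose, 12 fell and 10 were not called among 48 tested of 49 listed, with a median log2 change of 0.44. Vamp1, a vesicle fusion protein, had 15254, 16856 and 15711 in sham ganglia, against 1793, 1834 and 1991 in E17.5 ganglia, a change of 3.09 ± 0.09 (adjusted p = 7.2e-08), while Vamp2, its relative, was at 5369 ± 588 in sham ganglia, against 4348 ± 235 in E17.5 ganglia, a change of 0.30 ± 0.10 (adjusted p = 0.0317) that was -0.0038 under quantile normalization and was not called without sham replicate 1 or 3 or E17.5 replicate 3 (0.32, 0.21 and 0.26), nor thinned to the shallowest library or with eBayes lacking trend and robust (0.288 and 0.2998). Doc2b (-2.60) and Syn3 (-1.89, synapsin III of young neurons) fell. Among glutamate and GABA receptor genes 9 rose, 15 fell and 10 were not called among 34 tested of 40 listed, with a median log2 change of -0.23. Grm3, a metabotropic glutamate receptor, fell to 14.8 ± 2.39 in sham ganglia, against 254 ± 27.2 in E17.5 ganglia (-4.02).

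Pairs of an early and a late relative were read side by side. Nefh rose where Ina fell, Scn8a rose where Scn3a fell, and Tubb4a (0.76) rose where Tubb2b (-1.48) fell, these being tubulins. Under quantile normalization Tubb4a was at 0.303 and not called (adjusted p = 0.0542). Tuba4a, an alpha tubulin, rose to 8806 ± 511 in sham ganglia, against 1455 ± 129.7 in E17.5 ganglia, while Tuba1a was not called (71036 ± 5208 in sham ganglia, against 75488 ± 6355 in E17.5 ganglia) except under quantile normalization, which called it lower (-0.951, adjusted p = 4.96e-06). Other pairs did not part. Map1b, named as the early member, rose (0.94) as did Map1a (1.12). Slc12a5, the chloride exporter of mature central neurons, fell to 14.0 ± 2.48 in sham ganglia, against 47.1 ± 27.4 in E17.5 ganglia, with Slc12a2, the chloride importer, at 2119.7 ± 218 in sham ganglia, against 2003 ± 214 in E17.5 ganglia. Igf1 (-2.85) fell together with Igf2 (-3.93), Dnmt3a (-2.58) together with Dnmt3b (-1.88), and Igf2bp2 (-3.63) together with Lin28b (-1.20). Thinned to the shallowest library, Dnmt3b was at -1.21 and not called (adjusted p = 0.0639).

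Receptors for peptides, hormones and transmitters rose more often than they fell: 35 rose, 13 fell and 16 were not called among 64 tested of 71 listed, with a median log2 change of 0.74. Chrna6, a nicotinic receptor subunit, had 1049, 982 and 942 in sham ganglia, against 53.3, 56.4 and 67.1 in E17.5 ganglia, and P2rx5, an ATP-gated channel, had 138, 148 and 147 in sham ganglia, against 13.6, 7.05 and 4.62 in E17.5 ganglia. The sham libraries were the higher in both. Sstr4, a somatostatin receptor, fell to 24.8 ± 2.20 in sham ganglia, against 146 ± 32.3 in E17.5 ganglia, Lepr, the leptin receptor, to 132 ± 9.57 in sham ganglia, against 449 ± 57.6 in E17.5 ganglia, and Adra2a, an adrenergic receptor, to 78.4 ± 4.89 in sham ganglia, against 256 ± 51.1 in E17.5 ganglia. Neurotrophic factors and their receptors went both ways: 15 rose, 18 fell and 9 were not called among 42 tested of 49 listed, with a median log2 change of -0.18. Cntf, ciliary neurotrophic factor, which adult Schwann cells make, had 645, 787 and 582 in sham ganglia, against 7.87, 14.1 and 9.25 in E17.5 ganglia. It was near 0 at E17.5 and high in all sham libraries, a change of 5.91 ± 0.23 (adjusted p = 1.8e-07). Fgf9 (2.82) and Fgf1 (2.70), fibroblast growth factors, rose. Ntf3, neurotrophin 3, on which proprioceptors depend in the embryo, had 24.6, 21.2 and 24.7 in sham ganglia, against 295, 250.4 and 266 in E17.5 ganglia, a change of -3.47 ± 0.17 (adjusted p = 4.8e-07).

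Growth cone and guidance genes were more often lower than higher. Of the growth cone and young neuron cytoskeleton genes 9 rose, 27 fell and 14 were not called among 50 tested of 53 listed, with a median log2 change of -0.53, and 13 fell by over 2-fold against 1 that rose by as much, Tubb3 rising to 64085 ± 4138 in sham ganglia, against 24994 ± 3232 in E17.5 ganglia. Marcksl1, an actin-regulating substrate of protein kinase C, had 350.3, 278 and 304 in sham ganglia, against 4084, 3661 and 4823 in E17.5 ganglia, and Fscn1, fascin, which bundles actin in filopodia, had 316, 250.01 and 309.7 in sham ganglia, against 3096, 2106 and 4271 in E17.5 ganglia. Sham libraries were the lower throughout, with changes of -3.75 ± 0.13 (adjusted p = 1.1e-07) and -3.38 ± 0.23 (adjusted p = 2.4e-06). Stmn4, a stathmin, fell to 145 ± 39.1 in sham ganglia, against 938 ± 109.9 in E17.5 ganglia. Of the axon guidance genes 10 rose, 43 fell and 16 were not called among 69 tested of 71 listed, with a median log2 change of -0.92. Draxin, a repellent of axons, had 49.2, 43.1 and 70.5 in sham ganglia, against 828, 585 and 726 in E17.5 ganglia, and Ephb2, an ephrin receptor, had 61.0, 65.1 and 63.1 in sham ganglia, against 675, 406 and 636 in E17.5 ganglia. Both were lower in every sham library. Efna2, an ephrin, fell to 28.7 ± 3.64 in sham ganglia, against 211 ± 82.9 in E17.5 ganglia. Plxnc1, Sema7a (1.58) and Slit1 (1.497) were among the 10 guidance genes that rose. Of the early neural transcription factor genes 7 rose, 31 fell and 14 were not called among 52 tested of 60 listed, with a median log2 change of -0.75. Bcl11a fell to 48.3 ± 4.17 in sham ganglia, against 277 ± 25.4 in E17.5 ganglia, Sox11 to 282 ± 41.0 in sham ganglia, against 1450.4 ± 217 in E17.5 ganglia and Sox4 to 279 ± 4.36 in sham ganglia, against 1096 ± 345 in E17.5 ganglia, both Sox factors being known from young neurons, while Six4 rose to 1182 ± 86.9 in sham ganglia, against 243 ± 14.8 in E17.5 ganglia. The summed levels of spinal cord neuron markers and of astrocyte and oligodendrocyte markers were also lower in every sham library. The astrocyte and oligodendrocyte list shares Pdgfra with the fibroblast list and Cspg4 with the pericyte list. The part of such cells in these falls was not tested.

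Regeneration-associated genes, which adult sensory neurons switch on after nerve injury, did not follow 1 direction: 16 rose, 13 fell and 9 were not called among 38 tested of 45 listed, with a median log2 change of 0.13. Sprr1a, induced by nerve injury, had 409, 355 and 643 in sham ganglia, against 3.50, 10.6 and 2.31 in E17.5 ganglia. It was higher in every sham library and most so in replicate 3. Its level was 19137 ± 4545 in lesioned adult ganglia and 15.7 ± 14.5 at E12.5. Atf3, a transcription factor of injured neurons, had 524, 566 and 579.8 in sham ganglia, against 45.0, 35.3 and 64.7 in E17.5 ganglia, a change of 3.54 ± 0.21 (adjusted p = 1.2e-06). Its level in lesioned ganglia was 9207 ± 1995, and the sham animals had themselves been operated. Hspb1, a small heat shock protein, rose to 1442 ± 145 in sham ganglia, against 194 ± 35.7 in E17.5 ganglia. Gap43, Basp1 (-1.48), Tubb2b, Sox11 and Stmn4, which serve axon growth in embryos as well, fell. The lesion libraries share their controls with the sham group here, so only levels are set side by side. Among immediate early genes 11 rose, 7 fell and 16 were not called among 34 tested of 38 listed, with a median log2 change of 0.18, with Junb, an AP-1 factor, at 330.0 ± 33.7 in sham ganglia, against 81.3 ± 76.0 in E17.5 ganglia and Myc at 214 ± 19.0 in sham ganglia, against 741 ± 122 in E17.5 ganglia. Among Kruppel-like factors 2 rose, 6 fell and 7 were not called among 15 tested of 17 listed, with a median log2 change of -0.28, and Klf9, which restrains axon growth in cultured central neurons, had 1602, 1579.8 and 1684 in sham ganglia, against 309, 289 and 342 in E17.5 ganglia, a change of 2.37 ± 0.11 (adjusted p = 2.9e-07).

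**Figure D3:**
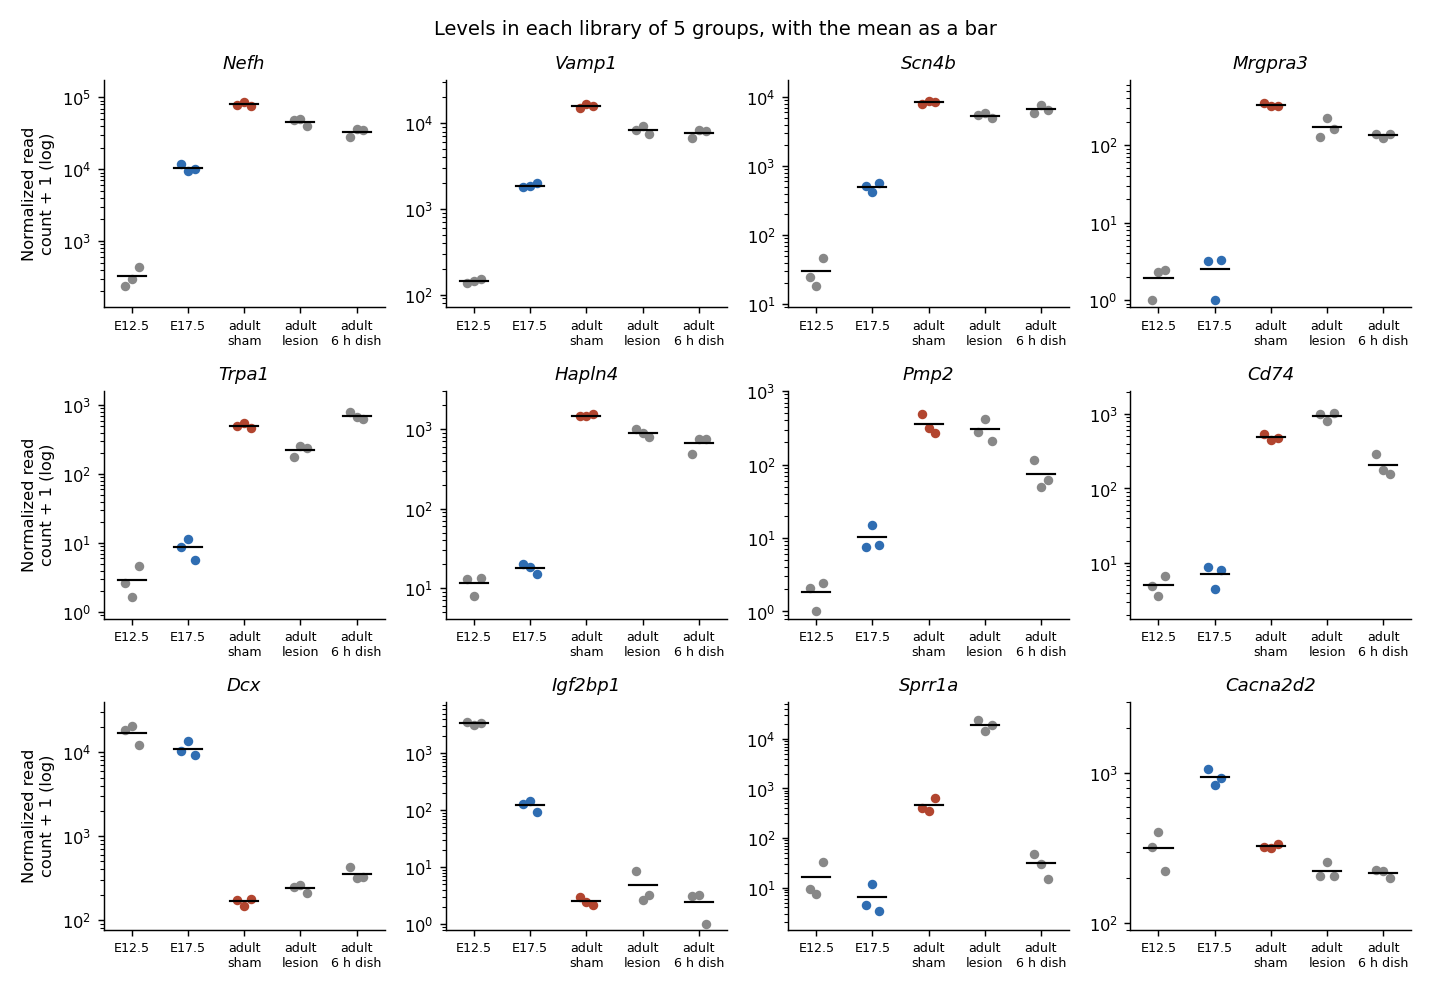
Normalized read count + 1 (y axis, log scale) of 12 genes in each library at E12.5, at E17.5, after sham surgery, after peripheral lesion and at 6 h in culture, with the mean as a bar. Nefh, Vamp1, Scn4b and Pmp2 stand higher at each later age from E12.5 to E17.5 to sham, Mrgpra3, Trpa1, Hapln4 and Cd74 are low at both embryonic ages, and Dcx and Igf2bp1 are low in all 3 adult groups.

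Every tested mitosis gene fell. Of 54 mitosis genes 53 passed the expression filter, which a gene can pass through its E17.5 level alone. Of these 53 fell and 0 rose, 48 by over 2-fold, with a median log2 change of -2.89. Mki67, the proliferation antigen, had 217, 196 and 149 in sham ganglia, against 2228, 2536 and 1797 in E17.5 ganglia. Ccnb1, the cyclin of mitotic entry, had 13.8, 7.31 and 5.73 in sham ganglia, against 166, 183 and 153 in E17.5 ganglia, Cdk1, its kinase, 11.8, 7.31 and 4.59 in sham ganglia, against 144, 169 and 85.6 in E17.5 ganglia, and Top2a, which untangles chromosomes, 38.4, 34.4 and 22.9 in sham ganglia, against 537, 585 and 375 in E17.5 ganglia. All sham libraries were far below all E17.5 libraries, and sham levels were above 0 in each. Of the DNA replication genes 1 rose, 31 fell and 7 were not called among 39 tested of 43 listed, with a median log2 change of -1.35, with Rrm2, which makes deoxynucleotides, at 24.1 ± 4.52 in sham ganglia, against 231 ± 42.1 in E17.5 ganglia, and Gins3 the 1 gene that rose (215 ± 19.5 in sham ganglia, against 156 ± 12.1 in E17.5 ganglia), a rise not called without sham replicate 1 or 2 or without E17.5 replicate 1 (0.41, 0.42 and 0.44 on the log2 scale), nor thinned to the shallowest library (0.450). Proximal promoters of 3 mitosis genes that fell are shown because many such genes share the TTTGAA element of cell cycle control and CCAAT boxes, the site of the factor NF-Y. Each runs from 250 bases before to 50 bases after the RefSeq start on the mouse build GRCm38.p6, 5′ to 3′ on the gene's strand, with capitals at the element TTTGAA, which reads TTCAAA on the opposite strand, and at the box CCAAT, which there reads ATTGG; the motifs can share an end base.
Ccnb1 promoter (chr13:100786437-100786736, minus strand): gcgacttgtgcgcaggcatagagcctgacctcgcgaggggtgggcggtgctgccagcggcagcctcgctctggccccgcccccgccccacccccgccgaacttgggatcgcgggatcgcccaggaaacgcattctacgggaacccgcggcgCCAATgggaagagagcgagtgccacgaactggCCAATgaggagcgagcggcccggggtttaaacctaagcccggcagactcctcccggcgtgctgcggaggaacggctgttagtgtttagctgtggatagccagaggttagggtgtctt
Cdk1 promoter (chr10:69352863-69353162, minus strand): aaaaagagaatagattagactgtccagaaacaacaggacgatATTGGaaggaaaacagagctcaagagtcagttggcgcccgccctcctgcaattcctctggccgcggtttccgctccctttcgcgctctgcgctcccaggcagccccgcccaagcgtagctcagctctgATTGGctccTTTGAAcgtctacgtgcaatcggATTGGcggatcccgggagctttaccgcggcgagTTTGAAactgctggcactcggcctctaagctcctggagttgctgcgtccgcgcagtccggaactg
Top2a promoter (chr11:99024140-99024439, minus strand): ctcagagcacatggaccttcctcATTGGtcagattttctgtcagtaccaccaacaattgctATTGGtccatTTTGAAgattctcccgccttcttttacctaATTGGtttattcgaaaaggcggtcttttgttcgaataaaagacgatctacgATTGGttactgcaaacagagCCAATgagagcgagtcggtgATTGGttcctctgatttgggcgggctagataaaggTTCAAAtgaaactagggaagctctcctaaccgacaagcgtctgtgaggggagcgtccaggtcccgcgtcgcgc

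RefSeq promoters were found for 45 of the 54 mitosis genes, 49 promoters in all. TTTGAA on either strand stood in 34 of them (69.39%), against 17.89% of all 32841 RefSeq promoters of the same length. CCAAT on either strand stood in 36 (73.47%), against 37.42% of all promoters, and both motifs in 29 (59.18%), against 6.952%. The promoter of Ccnb1 above holds CCAAT but no TTTGAA in this window. These are matches of letters, not measured binding. For the DNA replication and class II lists fewer than 80% of the genes had a RefSeq promoter, so no share is given.

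Most fetal growth and imprinted genes fell. Of the fetal growth programme genes 0 rose, 22 fell and 4 were not called among 26 tested of 29 listed, with a median log2 change of -1.53. Hmga2, a chromatin protein of fetal and stem cells, fell to 2.86 ± 1.11 in sham ganglia, against 104 ± 20.1 in E17.5 ganglia, and Uhrf1, which maintains DNA methylation at replication, to 14.9 ± 4.54 in sham ganglia, against 268 ± 10.8 in E17.5 ganglia. Of the imprinted growth genes 5 rose, 25 fell and 6 were not called among 36 tested of 39 listed, with a median log2 change of -1.54. Igf2, the fetal insulin-like growth factor, had 1775, 1945 and 1562 in sham ganglia, against 29864, 25162 and 25532 in E17.5 ganglia, lower in every sham library with a change of -3.93 ± 0.11 (adjusted p = 7.2e-08). Magel2 fell to 7.41 ± 3.86 in sham ganglia, against 353 ± 83.8 in E17.5 ganglia and Slc38a4, an amino acid transporter, to 11.5 ± 2.49 in sham ganglia, against 281 ± 98.3 in E17.5 ganglia. Nap1l5 (1.49) and Impact (1.34) rose. Of the RNA-binding and splicing regulators 4 rose, 23 fell and 15 were not called among 42 tested of 44 listed, with a median log2 change of -0.53. Celf5 fell to 108 ± 16.9 in sham ganglia, against 480.1 ± 68.9 in E17.5 ganglia and Ptbp1, which represses neuronal splicing, to 339.8 ± 12.0 in sham ganglia, against 1060.1 ± 58.0 in E17.5 ganglia, while Mbnl1, a splicing factor of adult tissues, rose to 5522 ± 324 in sham ganglia, against 1721 ± 432 in E17.5 ganglia.

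Most myelin genes rose. 37 of the 40 listed genes were tested: 31 rose, 22 of them by over 2-fold, 3 fell and 3 passed in neither direction, at a median log2 change of 1.91. Pmp2, a fatty acid carrier of myelin, had 492, 309 and 266 in sham ganglia, against 6.56, 14.1 and 6.94 in E17.5 ganglia, a change of 5.15 ± 0.33 (adjusted p = 1.9e-06), and Fa2h, which hydroxylates myelin lipids, had 427, 493 and 429.5 in sham ganglia, against 21.0, 7.05 and 27.7 in E17.5 ganglia. Every sham library was higher for both. The 3 that fell were Mog (0.710 ± 0.621 in sham ganglia, against 33.3 ± 14.2 in E17.5 ganglia) and Cldn11 (168 ± 40.4 in sham ganglia, against 981 ± 89.5 in E17.5 ganglia), both known from myelin of the central nervous system, and Gpr126 (556 ± 45.1 in sham ganglia, against 1241 ± 169 in E17.5 ganglia), a receptor that starts myelination. The astrocyte and oligodendrocyte markers, lower in every sham library as given above, include Mog and Cldn11 themselves, so their sum is no separate measure. Their part in these falls was not tested. The myelinating Schwann cell markers, which overlap this list, rose in 10 of 10 (median 3.18), beside 7 of 14 markers of satellite glia and unmyelinated Schwann cells (median 0.43), among which Apoe, a lipid carrier, rose to 37758 ± 4140.1 in sham ganglia, against 6091 ± 3184 in E17.5 ganglia. Cholesterol and lipid synthesis genes changed less: 17 rose, 6 fell and 19 were not called among 42 tested of 44 listed, with a median log2 change of 0.13. Scd1, a fatty acid desaturase, rose to 21725 ± 555 in sham ganglia, against 4608 ± 400.1 in E17.5 ganglia, whereas Fasn, fatty acid synthase, fell by 0.81 on the log2 scale.

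Most collagen and matrix genes fell. Of the collagen genes 3 rose, 35 fell and 1 was not called among 39 tested of 41 listed, with a median log2 change of -2.28, and 25 fell by over 2-fold. Col1a1, a chain of type I collagen, had 534, 419.6 and 374 in sham ganglia, against 9577, 5950.2 and 6456 in E17.5 ganglia, and Col26a1 50.2, 46.8 and 39.0 in sham ganglia, against 832, 582 and 911 in E17.5 ganglia. All sham libraries were lower. Col24a1 (1.23), Col5a3 (1.17) and Col23a1 (0.76) were the collagens that rose. Of the collagen processing and matrix genes 4 rose, 35 fell and 5 were not called among 44 tested of 45 listed, with a median log2 change of -1.41. Eln, elastin, fell to 119 ± 23.5 in sham ganglia, against 2692 ± 387 in E17.5 ganglia and Fbn2, a fibrillin of embryonic tissue, to 22.1 ± 5.24 in sham ganglia, against 1289 ± 106 in E17.5 ganglia. Hapln1, a link protein, Timp2, a protease inhibitor, and Dcn, decorin, rose (1.37, 0.93 and 0.83 on the log2 scale). Fibroblast and meningeal markers, which include Col1a1 and Dcn, fell in 12 of 18 and rose in 3 (median -1.84). Fibroblast markers outside the matrix also fell, such as Pdgfra, a growth factor receptor, at 330.2 ± 21.0 in sham ganglia, against 1089 ± 109 in E17.5 ganglia. The part of fibroblast number in the fall of collagens was not tested.

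Class II antigen presentation genes were at low levels at E17.5. Of 12 class II presentation genes 8 passed the expression filter, which a gene can pass through its sham level alone. Of these 7 rose and 1, Ctss, was not called (79.1 ± 7.34 in sham ganglia, against 76.6 ± 36.7 in E17.5 ganglia). The median log2 change was 4.14. Cd74, the invariant chain, had 534, 446 and 473 in sham ganglia, against 7.87, 3.53 and 6.94 in E17.5 ganglia, a change of 6.15 ± 0.27 (adjusted p = 2.9e-07). H2-Eb1 had 344, 328 and 295 in sham ganglia, against 12.7, 17.6 and 2.31 in E17.5 ganglia and H2-Ab1 243, 265 and 196 in sham ganglia, against 6.56, 14.1 and 9.25 in E17.5 ganglia. Sham libraries were high and close to each other, and E17.5 libraries were near 0. H2-DMb1, which helps load peptides, rose to 68.2 ± 10.2 in sham ganglia, against 4.29 ± 2.47 in E17.5 ganglia, and Ciita, the master activator of these genes, to 27.9 ± 6.32 in sham ganglia, against 8.72 ± 4.55 in E17.5 ganglia. H2-Eb2 was at 1 read over each group. The proximal promoter of H2-Aa, the class II gene that rose most, is shown with the same capitals; the ATTGG letters are a reverse CCAAT box, which class II promoters carry as the Y box.
H2-Aa promoter (chr17:34287774-34288073, minus strand): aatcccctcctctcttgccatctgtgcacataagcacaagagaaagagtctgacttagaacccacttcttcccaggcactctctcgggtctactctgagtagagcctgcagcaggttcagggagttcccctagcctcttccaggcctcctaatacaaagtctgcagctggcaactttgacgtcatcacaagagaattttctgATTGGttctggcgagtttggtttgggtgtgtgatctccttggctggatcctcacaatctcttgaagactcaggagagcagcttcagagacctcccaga

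Most class I and immunoproteasome genes rose: 16 rose, 1 fell and 3 were not called among 20 tested of 26 listed, with a median log2 change of 2.04. H2-K1 had 1011, 936 and 882 in sham ganglia, against 77.4, 123 and 104 in E17.5 ganglia and H2-D1 1819, 1852 and 1839 in sham ganglia, against 317, 247 and 372 in E17.5 ganglia, both higher in every sham library. Near-identical class I genes may share reads, so their single levels are uncertain. Psmb8, an immunoproteasome subunit, rose to 67.8 ± 12.4 in sham ganglia, against 6.41 ± 1.01 in E17.5 ganglia, and Psme1, a proteasome activator subunit, fell to 34.6 ± 4.37 in sham ganglia, against 93.4 ± 21.0 in E17.5 ganglia. Of the interferon response genes 37 rose, 2 fell and 10 were not called among 49 tested of 50 listed, with a median log2 change of 1.62. Ifit1 had 631, 2474 and 593 in sham ganglia, against 19.7, 28.2 and 34.7 in E17.5 ganglia, so its sham level rested largely on replicate 2, and the list summed to 13462 to 22840.5 in sham ganglia, against 5904 to 6245 in E17.5 ganglia with replicate 2 the highest. Oasl2 had 1108, 1809 and 1166 in sham ganglia, against 147, 145 and 146 in E17.5 ganglia, and Iigp1 95.4, 455 and 128 in sham ganglia, against 17.1, 14.1 and 23.1 in E17.5 ganglia, without overlap. Markers of macrophages, which carry class II molecules, had a median log2 change of 0.19, and Lyz2, a lysozyme of myeloid cells, was at 691 ± 37.7 in sham ganglia, against 188 ± 43.1 in E17.5 ganglia, while Csf1r, the receptor of macrophage growth, was at 188 ± 12.6 in sham ganglia, against 193 ± 34.8 in E17.5 ganglia and Aif1, a calcium-binding protein of macrophages, was below the filter in both groups. Neutrophil and mast cell markers rose in 8 of 11 (median 3.30) and summed to 869 to 978 in sham ganglia, against 55.5 to 185 in E17.5 ganglia. These markers, too, could pass the filter through their sham level alone. The part of immune cell number in these rises was not tested. Complement and coagulation genes went both ways: 11 rose, 7 fell and 10 were not called among 28 tested of 33 listed, with a median log2 change of 0.35. C4b, complement C4, had 135, 213 and 194 in sham ganglia, against 4.81, 10.6 and 4.62 in E17.5 ganglia and Cd59a, which blocks the membrane attack complex, 2369.5, 2258 and 2318 in sham ganglia, against 341, 406 and 273 in E17.5 ganglia. F13a1, of resident macrophages and clotting, fell to 165 ± 23.8 in sham ganglia, against 561 ± 41.0 in E17.5 ganglia.

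Among housekeeping lists, ribosomal protein genes were mostly lower. Of the cytosolic ribosomal protein genes 0 rose, 60 fell and 17 were not called among 77 tested of 80 listed, with a median log2 change of -0.93, and 5 fell by over 2-fold. Rps7 fell to 58.2 ± 11.7 in sham ganglia, against 208 ± 83.5 in E17.5 ganglia, Rpl11 to 65.3 ± 18.1 in sham ganglia, against 229 ± 62.5 in E17.5 ganglia and Rpl28 to 17.5 ± 3.72 in sham ganglia, against 106 ± 20.1 in E17.5 ganglia. Ribosomal protein genes have many processed copies in the genome, and how shared reads were counted is not stated. Their transcripts are short (median of the longest transcripts 1059 bases), and the other 1365 tested genes of at most 1500 bases had a median log2 change of 0.21. Over 5 bins of transcript length, which 94.98% of tested genes had, the median ran 0.17, 0.07, -0.01, -0.09 and -0.29 from short to long. The cause of that trend was not tested. Of the oxidative phosphorylation genes 18 rose, 6 fell and 51 were not called among 75 tested of 79 listed, with a median log2 change of 0.23, none of them called over 2-fold. Of the glycolysis genes 15 rose, 6 fell and 10 were not called among 31 tested of 33 listed, with a median log2 change of 0.34. Pkm, pyruvate kinase, rose to 16914 ± 704 in sham ganglia, against 5334 ± 589 in E17.5 ganglia and Ldhb, lactate dehydrogenase B, to 2481 ± 245 in sham ganglia, against 682 ± 139 in E17.5 ganglia, while Slc16a3, a lactate exporter, fell to 32.2 ± 4.33 in sham ganglia, against 236 ± 90.2 in E17.5 ganglia. Of the lysosome genes 32 rose, 5 fell and 23 were not called among 60 tested of 60 listed, with a median log2 change of 0.38. Ctsb, cathepsin B, had 26905, 26742 and 25178 in sham ganglia, against 5828, 5668 and 5455 in E17.5 ganglia, a change of 2.22 ± 0.08 (adjusted p = 1.2e-07), and Ctsk, the cathepsin of bone resorption, ran the other way at 102 ± 24.1 in sham ganglia, against 469 ± 67.5 in E17.5 ganglia. Of the antioxidant and metallothionein genes 27 rose, 4 fell and 19 were not called among 50 tested of 56 listed, with a median log2 change of 0.48. Srxn1, sulfiredoxin, had 8273, 8311 and 8193 in sham ganglia, against 940.4, 875 and 839 in E17.5 ganglia, and Mt2, a metallothionein, 145, 134 and 159 in sham ganglia, against 21.0, 3.53 and 9.25 in E17.5 ganglia. Every sham library was higher in both. Of the circadian clock genes 11 rose, 5 fell and 3 were not called among 19 tested of 22 listed, with a median log2 change of 0.86, where the time of day of collection is not stated. Nr1d2, a repressor of the clock, rose to 1349.9 ± 99.5 in sham ganglia, against 199.8 ± 48.5 in E17.5 ganglia, and Nfil3 fell to 125 ± 23.9 in sham ganglia, against 243 ± 35.8 in E17.5 ganglia.

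Haemoglobin genes mark red blood cells, and the amount of blood and the globin RNA per cell cannot be told apart here. The 6 adult globin genes all fell by over 2-fold (median log2 change -2.58). Hba-a1 had 635, 472 and 559 in sham ganglia, against 3143, 5619 and 6393 in E17.5 ganglia, and Hbb-b1 629, 925 and 825 in sham ganglia, against 4052, 10384 and 5561 in E17.5 ganglia. Hbb-b2 and Hbb-bt held identical values in every library and globin copies may share reads, so single members are uncertain. The 3 embryonic globin genes in the table stayed below the filter in both groups. Muscle markers summed to 192 to 422 in sham ganglia, against 983 to 3580.0 in E17.5 ganglia, and 4 of 13 tested fell. Bone markers were led by Ibsp, bone sialoprotein, at 139 ± 13.2 in sham ganglia, against 1682 ± 532 in E17.5 ganglia. The part of attached tissue in other changes was not tested.

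**Figure D4:**
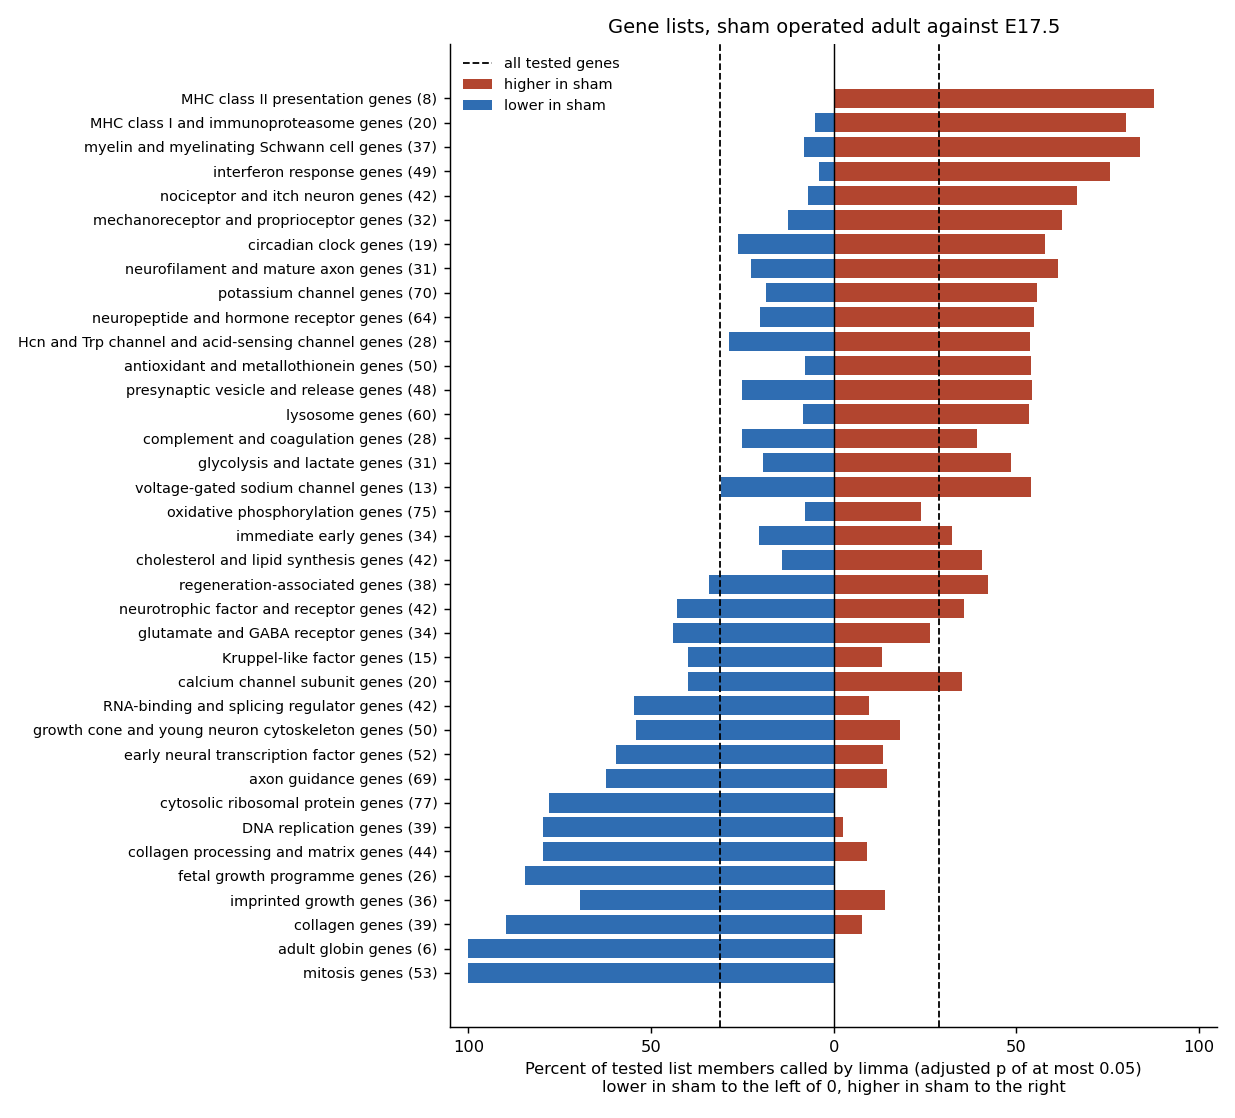
Share of tested members called higher (right) or lower (left) in sham ganglia for 37 gene lists, with the number tested in brackets and the shares over all tested genes (28.9% higher, 31.1% lower) as dashed lines. Class II, class I, myelin and interferon lists exceed the dashed line to the right most, and mitosis, globin and collagen lists to the left.

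**Figure D5:**
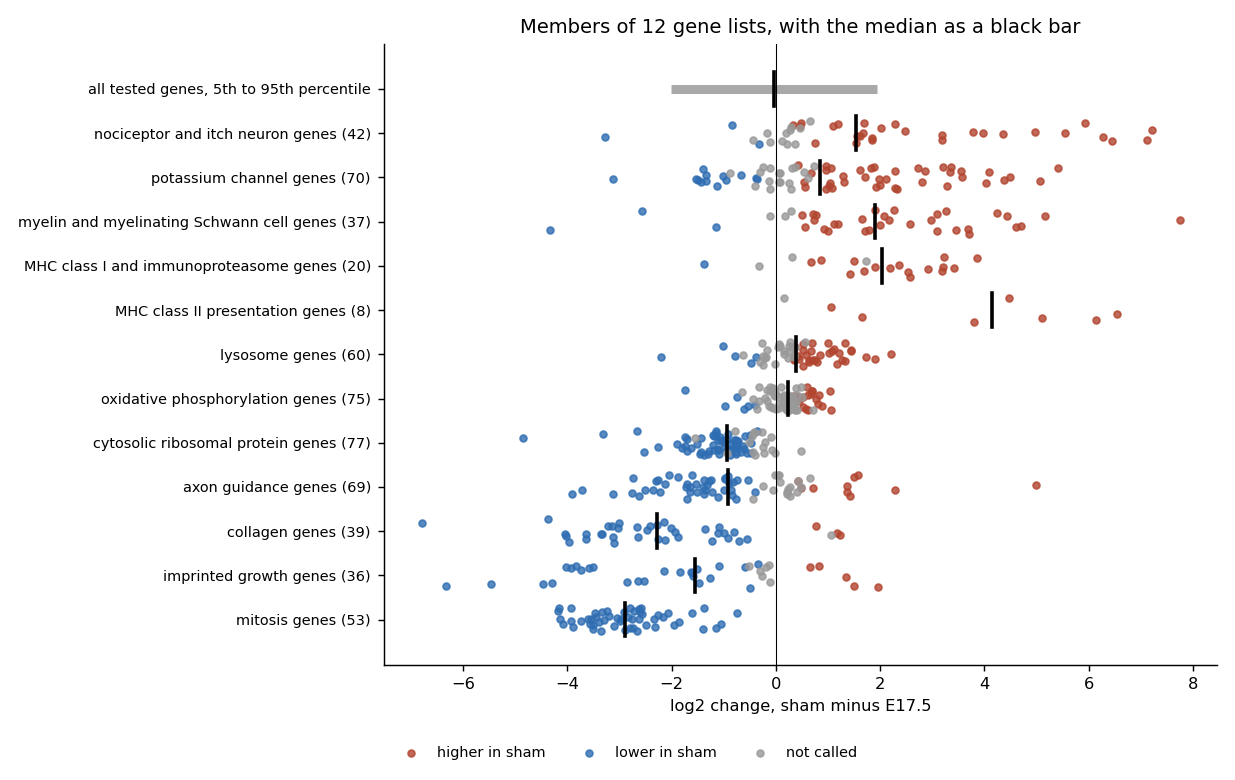
log2 change, sham minus E17.5 (x axis), of each tested member of 12 lists, coloured by its call, with the list median as a black bar and the 5th to 95th percentile of all tested genes (-2.01 to 1.93) as a grey bar. Mitosis genes all lie below 0, while the potassium channel and axon guidance lists hold members on both sides.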

How the data were processed

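The authors deposited 1 signal value per gene and library, which the values show to be read counts divided by 1 factor per library. The submitters' processing notes name TopHat and mm10, and TruSeq V2 libraries were made from 10 ng of RNA, per the labels' protocols. The sources used here do not give the counting tool, the annotation or how the factors were computed. The kit does not mark strand, so overlapping antisense genes cannot be told apart. Whole reads were recovered from 100% of 85141 low values of the 6 libraries, within 0.1 read.

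Values were tested as log2(value + 1) with limma 3.58.1 in R 4.3.3, eBayes trend and robust, for genes of at least 10 in 3 of 6 libraries, and with treat against a log2 change of 1. A gene of any list can pass that filter through its level in 1 group alone. The design foresaw edgeR as the main test for raw counts; the values were normalized, so limma was kept and edgeR 4.0.16 and DESeq2 1.42.0 on recovered reads were alternatives. On simulated counts over 14510 genes, with changes planted in 200, limma recovered 30.8%, 72.7% and 96.9% of planted 1.5-fold, 2-fold and 4-fold changes, with 7.09% of calls false. In the data 60% of genes were called, so these rates need not hold for the calls above. No further scaling was applied, and no pair of replicates differed by as little as sampling noise (chi-square per degree of freedom 7.96 to 13.6). Floors and counting intervals cover counting error only.

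Named genes were the 15 largest rises and falls with groups not overlapping and a higher mean of at least 100.0, up to 3 rises and 3 falls per list, Cacna2d, globin and class II genes, defining markers, members against their list and the fixed pairs; a few genes this rule names are not reported here. The lists and groups were chosen with earlier results of these data known.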

Additional observations from a re-analysis of the deposited data

How the results depend on the processing

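The counts of genes called higher and called lower stayed within 1.5 times their main value under the 17 alternatives. Without 1 library at a time, 3248 to 4540 genes were higher and 3801 to 4590 lower, and 614 to 1060 were over 2-fold higher and 649 to 836 over 2-fold lower. The over 2-fold counts moved by more than 1.5 times without sham replicate 1 or 3 (614 higher) and without E17.5 replicate 1 (649 lower). Without sham replicate 2 the count was close to these, at 624 higher. Fewer samples were then tested, and genes that passed the expression filter only through the group that lost a library were not tested. No called gene was called in the opposite direction under any alternative. The median log2 change stayed between -0.05 and 0.01. Of 178 genes named that were called, 170 kept direction and call in every alternative that tested them. Not all were tested in all 17. Cd74, H2-Aa and Ddn, for example, failed the expression filter when a sham library was left out, and Col22a1 and Coch when an E17.5 library was. Genes whose direction turned were uncalled ones or Vamp2. Under quantile normalization Avil was at -0.105, Cacna2d1 at -0.174, Slc12a2 at -0.0546, Malat1 at -0.0557, Csf1r at 0.0770 and Vamp2 at -0.0038. Thinned to the shallowest library, Slc12a2 was at -0.0365. Without 1 library at a time Cacna2d1 ran from -0.0291 to 0.235, Ctss from -0.188 to 0.505 and Csf1r from -0.134 to 0.114. The cause was not tested. No paired analysis was possible because the labels give the groups library numbers and no shared replicate numbers. Levels at E17.5 below about 10 rest on few reads in replicates 2 and 3.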

Other observations

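Neat1, a nuclear RNA that builds paraspeckles, was noticed after its values had been seen and lies outside the rule for named genes. Its normalized read count was 3614, 5100 and 4723 in sham ganglia, against 315, 342 and 347 in E17.5 ganglia, a log2 change of 3.72 ± 0.14 (limma adjusted p = 1.2e-07). Malat1, the neighbouring nuclear RNA, had 13552, 16544 and 14491 in sham ganglia, against 9260, 14585 and 10625 in E17.5 ganglia, and was not called (log2 change 0.39 ± 0.16, adjusted p = 0.0569). Its call depended on the setting: it was higher and called in 6 of the 17 alternatives, with TMM scaling (adjusted p = 0.0492), all 24 libraries (0.0361), edgeR (0.0398), DESeq2 (0.0273), thinning to the shallowest library (0.0417) and without E17.5 replicate 2 (0.578 on the log2 scale, 7.0e-04), against -0.0557 and no call under quantile normalization. The Neat1 groups did not overlap, while the Malat1 groups did.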
